A study of Arabidopsis thaliana with 12 samples.

Results

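STZ, AR781, CML37 and CML38 are 4 Arabidopsis thaliana genes whose transcripts are known to rise quickly after stress, and each was read by 1 probe set among the 22746 tested on the array. The 4 probe sets were chosen by their readings on these same arrays: STZ and AR781 were known to be higher after dexamethasone, and the readings of all 4 in the 6 groups were in view. Their values are therefore a description: standard errors are given, and limma's calls of them are counted only beside the share of the whole array that was called. Each member is its own locus: STZ is AT1G27730 on chromosome 1, AR781 is AT2G26530 on chromosome 2, CML37 is AT5G42380 on chromosome 5 and CML38 is AT1G76650 on chromosome 1. In the RefSeq annotation the locus before CML38 is AT1G76640, a second calmodulin-like gene with a probe set of its own, and no 2 of the 4 members lie next to each other.

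RNA came from 9-day-old seedlings in 6 groups with 2 arrays each, 1 array per group in each of 2 lot batches named by the labels. LEAFY-GR seedlings had 8 h of dexamethasone plus cycloheximide, of cycloheximide, of dexamethasone, or of mock treatment. The remaining groups were 35S::LFY seedlings and seedlings of the accession Landsberg erecta, both untreated per the labels. LEAFY-GR is the floral transcription factor LEAFY joined to the glucocorticoid receptor's hormone-binding part, which lets the protein act once the steroid dexamethasone is added. In 35S::LFY a viral promoter drives LEAFY throughout the plant. Cycloheximide blocks translation and so the making of new proteins. The labels give neither the promoter and accession behind LEAFY-GR nor the number of lines, and on these arrays dexamethasone was given only to LEAFY-GR plants. Nothing in them tells whether a group's 2 arrays came from separate plantings, so the spread between them may be technical.

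STZ, also called ZAT10, encodes a C2H2 zinc-finger protein that represses transcription and is induced by salt, cold, drought, strong light and wounding. CML37 and CML38 encode calmodulin-like proteins, small EF-hand proteins that bind calcium and pass the calcium signals of stressed cells to other proteins. CML37 is known from wounding, insect feeding and drought, and CML38 from wounding and low oxygen. AR781 is known mainly as a transcript that rises early in stress and defence, and no molecular role is given for it here. Many such transcripts are short-lived, and in plants and animals the RNA of rapid response genes commonly builds up when translation is blocked.

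All 12 arrays had been scaled to one mean, with a mean after trimming 2% at each end of 150.01 to 150.02 and medians of 49.8 to 69.4. The highest reading on an array was 8128.1 to 11548.5, and the files give no saturation or detection marks, so nothing marks whether a reading near the top or the bottom of the scale is a limit. The ratio of 3′ to 5′ control probe sets, a sign of RNA intactness, was 0.974 to 1.3 for GAPDH, 1.35 to 2.25 for actin and 1.4 to 1.98 for ubiquitin. Among the leaf and root markers with a named probe set, the antenna protein gene LHCB4.1 read 3267.1 to 8019.0. The root glucosidase gene PYK10 read 1224.1 to 6849.5, so both were read far above the array medians. PYK10 was the only 1 of the 3 measured root markers read so high. The root-hair expansin genes EXPA7, at 34.2 to 95.8, and EXPA18, at 20.9 to 128.6, read on both sides of those medians. Such levels cannot show their presence. Intensities of different probe sets cannot be set against each other, so every comparison is made within a gene.

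CML37 was read strongly only with cycloheximide. It read 2854.6 in lot 1 and 2109.6 in lot 2 with dexamethasone plus cycloheximide, 2267.1 and 1592.9 with cycloheximide, 34.6 and 9.4 with dexamethasone and 24.1 and 7.3 with mock treatment. In 35S::LFY seedlings it read 8.3 and 2.1, against 0.5 and 1.4 in Landsberg erecta. The cycloheximide groups overlapped each other and stood far above all others. Among the low groups the neighbours dexamethasone and mock overlapped, and so did mock and 35S::LFY, while Landsberg erecta lay below every other array. Of the 12 readings, 6 were under 10, the constant added before taking logarithms, so the size of any change at this end depends on that constant.

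CML38 had the same 2 high groups. It read 4051.9 and 3718.2 with dexamethasone plus cycloheximide, 3465.1 and 3913.6 with cycloheximide, 229.4 and 60.0 with dexamethasone, and 182.6 and 50.6 with mock treatment. In 35S::LFY it read 14.7 and 10.2, against 8.4 and 20.2 in Landsberg erecta. Every LEAFY-GR array was above every array of the 2 untreated groups. The 2 cycloheximide groups overlapped, as did dexamethasone and mock, and as did 35S::LFY and Landsberg erecta.

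STZ, the transcription factor gene of the set, separated its groups most finely. It read 8839.6 and 8032.9 with dexamethasone plus cycloheximide and 7160.6 and 8824.4 with cycloheximide, close to the top readings of those arrays, which were 8128.1 to 10557.2. It read 976.7 and 766.1 with dexamethasone, against 507.2 and 382.6 with mock treatment. In 35S::LFY seedlings it read 83.7 and 75.2, against 37.4 and 39.1 in Landsberg erecta. Only the 2 cycloheximide groups overlapped; each of the other neighbouring groups was apart on both arrays.

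AR781 followed the same order. It read 5124.6 and 5548.1 with dexamethasone plus cycloheximide, 4859.3 and 5209.7 with cycloheximide, 530.8 and 393.6 with dexamethasone, and 171.3 and 115.5 with mock treatment. In 35S::LFY it read 79.5 and 95.8, against 60.0 and 84.4 in Landsberg erecta. The 2 cycloheximide groups overlapped, the 2 untreated groups overlapped, and dexamethasone and mock were apart from each other and from the rest.

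**Figure D1:**
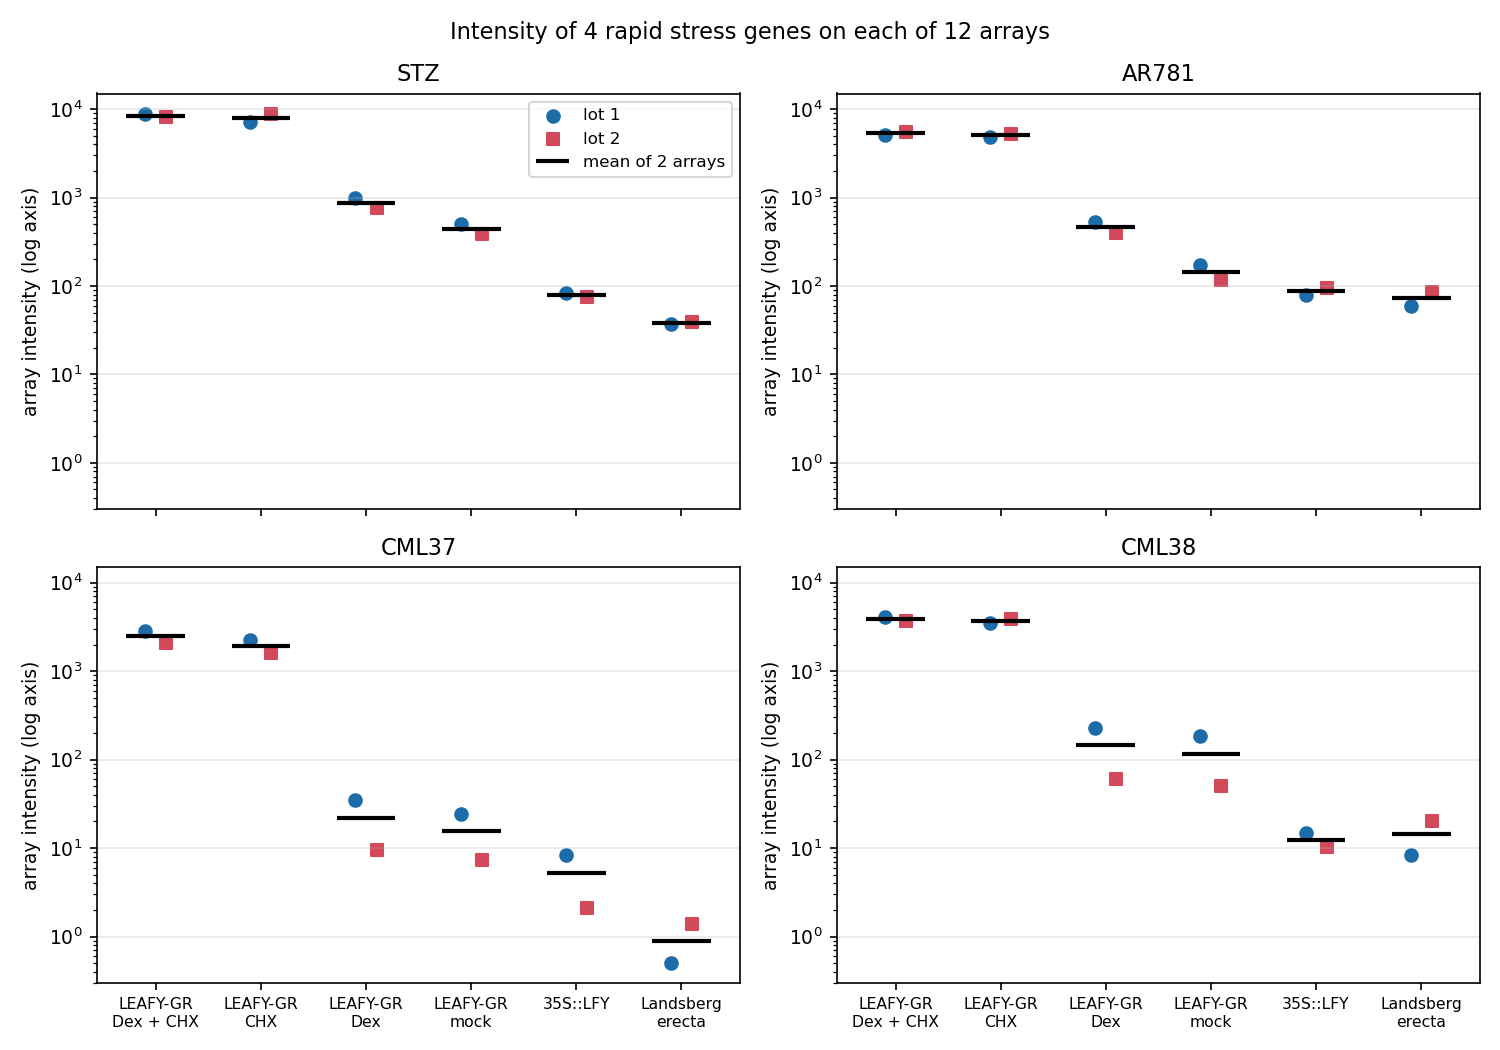
Array intensity (log axis) of STZ, AR781, CML37 and CML38 in the 6 groups; circles are lot 1, squares lot 2 and bars the mean of 2 arrays. All 4 genes are highest in the cycloheximide groups, and CML37 and CML38 show wide gaps between the lots in the dexamethasone and mock groups.

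Cycloheximide alone raised the readings of all 4 genes above mock treatment in both lots. On the log2 scale of intensity plus 10, CML37 was 6.30 ± 0.42 higher (SE, 2 arrays against 2), a 78.7-fold ratio, with 6.06 in lot 1 and 6.53 in lot 2. CML38 was 5.10 ± 0.55 higher, or 34.2-fold, with 4.17 in lot 1 and 6.02 in lot 2. STZ was 4.14 ± 0.17 higher, or 17.7-fold, and AR781 was 5.06 ± 0.21 higher, or 33.4-fold. Ordered by log2 change among the 22746 probe sets, CML37 was number 47, CML38 number 153, AR781 number 156 and STZ number 309.

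Those ranks stand in a comparison in which much of the array moved. With limma and Benjamini-Hochberg adjustment over all tested probe sets, 17.2% were called higher with cycloheximide than with mock at an adjusted p under 0.05, and 25.6% were called lower. All 4 members were among those called higher and none was called lower. The constant mattered for CML37, whose change was 7.04 with 1 added in place of 10 and 4.90 with 50. For CML38 the value rested on which mock array was used, since it was 5.93 without the lot 1 mock array and 4.26 without the lot 2 mock array. In a bulk sample, fewer cells with a transcript and less of it per cell cannot be told apart, here and in the comparisons below.

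Cycloheximide given with dexamethasone, set against dexamethasone, gave a like picture from 4 other arrays. CML37 was 6.39 ± 0.42 higher (SE) on the log2 scale, or 83.8-fold, and CML38 was 4.91 ± 0.55 higher, or 30.1-fold. STZ was 3.27 ± 0.17 higher, or 9.64-fold, and AR781 was 3.52 ± 0.21 higher, or 11.4-fold. All 4 were again among the probe sets called higher, which were 14.4% of those tested, against 26.2% called lower. With the arrays set to one median instead of one trimmed mean, the split over the array became 3984 higher and 4379 lower, in place of 3280 and 5959, and the 4 members stayed called. CML38 was 5.80 without the lot 1 dexamethasone array and 4.02 without the lot 2 one, and CML37 ran between 5.14 and 7.0 over the added constants of 50 and 1.

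Dexamethasone without cycloheximide was followed by higher readings of AR781 and STZ, and by no difference beyond the error for either calmodulin-like gene. AR781 was 1.63 ± 0.21 higher than with mock on the log2 scale, with 1.58 in lot 1 and 1.69 in lot 2. STZ was 0.96 ± 0.17 higher, with 0.93 in lot 1 and 0.98 in lot 2. CML37 differed by 0.28 ± 0.42, with 0.39 in lot 1 and 0.17 in lot 2. CML38 differed by 0.26 ± 0.55, with 0.31 and 0.21. In both genes the 2 groups overlapped, across lots that stood far apart. With the lots fitted as a replicate block the errors were 0.28 for CML37 and 0.52 for CML38, and neither was called. By log2 change AR781 was number 19 of 22746 and STZ number 252.

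Of the 4, limma called 2 higher and 0 lower with dexamethasone, where 0.215% of all tested probe sets were called higher and 0.259% lower. These values were part of the choice of members, and nothing is read from the count. STZ lost its call without either dexamethasone array, without the lot 2 mock array (0.76) and without any 1 array of 3 groups outside the comparison, and AR781 lost it without the lot 1 dexamethasone array (1.42) or the lot 2 mock array (1.37). The split over the array was 49 higher and 59 lower, and with equal medians it was 29 and 67, a setting under which STZ was 0.82 higher and no longer called. That scaling moved the median of all changes by -0.102 in this comparison, 0.155 for dexamethasone plus cycloheximide against dexamethasone, 0.13 for mock LEAFY-GR against Landsberg erecta and 0.145 for the difference between the dexamethasone responses.

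Dexamethasone on top of cycloheximide left the 4 genes where cycloheximide alone had put them, within the error. CML37 was 0.37 ± 0.42 higher with both agents than with cycloheximide, CML38 0.08 ± 0.55, STZ 0.08 ± 0.17 and AR781 0.08 ± 0.21 (log2, SE). In STZ the lots pointed in opposite directions, at 0.30 in lot 1 and -0.14 in lot 2, and for each of the 4 genes the arrays of the 2 groups overlapped. None of the 4 was called by limma in either direction, and 0 had an unadjusted p under 0.05, beside 1401 of all 22746 tested probe sets. Over the array 0.136% were called higher and 0.0572% lower, that is 31 and 13 probe sets, or 27 and 4 with equal medians.

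The dexamethasone response with cycloheximide minus that without it was -0.87 ± 0.24 for STZ, with -0.63 in lot 1 and -1.12 in lot 2. For AR781 it was -1.55 ± 0.30, with -1.50 and -1.59. CML37 gave 0.09 ± 0.59 and CML38 -0.19 ± 0.78, so for them the difference was smaller than its error. The higher readings of STZ and AR781 with dexamethasone were part of the choice of members, and they are subtracted here. That choice by itself lowers these 2 values, so nothing is read from their sign or from the counts that follow. At an unadjusted p under 0.05 there were 2 of the 4, beside 1168 of all 22746 tested probe sets. None of the 4 was called by limma, and over the array 0.0264% were called higher and 0.00440% lower. That is 6 higher and 1 lower, which became 2 and 0 with equal medians; 1 was called higher with the lots as a replicate block. Whether the high readings under cycloheximide limited a further rise of STZ or AR781 was not tested.

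**Figure D2:**
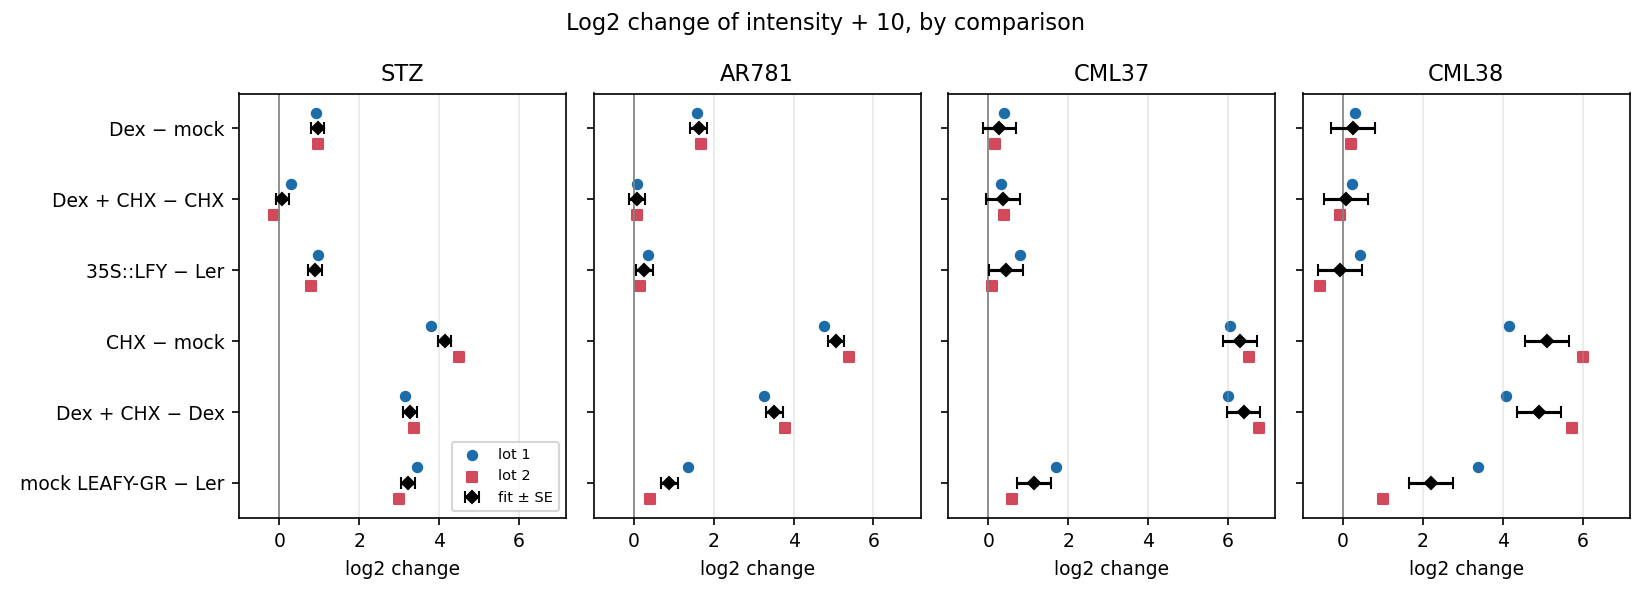
Log2 change of intensity plus 10 for the 4 genes in 6 comparisons, with the change in lot 1 (circles), in lot 2 (squares) and from the fit with its standard error (diamonds). CML37 and CML38 lie near 0 for dexamethasone against mock, where STZ is at 0.96 and AR781 at 1.63.

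Constant LEAFY was set beside untreated wild type in the comparison of 35S::LFY with Landsberg erecta. STZ was 0.89 ± 0.17 higher in 35S::LFY (log2, SE), with 0.98 in lot 1 and 0.80 in lot 2 and no overlap between the groups, at readings below every LEAFY-GR array. AR781 was 0.26 ± 0.21 higher and overlapped. CML37 had all 4 readings under 10, and its difference of 0.44 ± 0.42 became 1.5 with 1 added and 0.11 with 50. CML38 differed by -0.08 ± 0.55. At an unadjusted p under 0.05 there was 1 of the 4, STZ, beside 1361 of all 22746 tested probe sets. None of the 4 was called by limma in either direction, where over the array 0.171% were called higher and 0.123% lower. The array's split was 39 and 28, or 25 and 9 with equal medians.

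Mock-treated LEAFY-GR seedlings had higher mean readings of the members than Landsberg erecta, before any dexamethasone or cycloheximide. STZ was 3.22 ± 0.17 higher in mock LEAFY-GR (log2, SE), or 9.34-fold, and stood at number 23 of 22746 by log2 change. CML38 was 2.20 ± 0.55 higher, or 4.58-fold, with 3.39 in lot 1 and 1.00 in lot 2, and stood at number 128. AR781 was 0.89 ± 0.21 higher, or 1.86-fold. CML37 was 1.15 ± 0.42 higher, a size that depends on the added constant because its Landsberg erecta readings were near 0: it was 2.93 with 1 added and 0.35 with 50. For STZ, mock LEAFY-GR against Landsberg erecta was thus a larger difference than dexamethasone against mock, 3.22 beside 0.96, in comparisons that share the mock arrays.

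Of the 4, limma called 3 higher in mock LEAFY-GR and 0 lower, and 4.0% of all tested probe sets were called higher and 3.82% lower. CML37 was the one not called, and it was called with the lots as a replicate block, at 1.15 ± 0.28. The array's split was 910 and 869, or 1095 and 388 with equal medians. The groups differ in the LEAFY-GR transgene, in mock treatment and possibly in accession, and these cannot be told apart. The 3′ to 5′ ratios differed as well, for example 1.12 and 0.974 for GAPDH in mock LEAFY-GR against 1.27 and 1.3 in Landsberg erecta, and their part in the result was not tested. CML38 was 1.36 and not called without the lot 1 mock array, 3.03 without the lot 2 one, and 1.26 and not called with 50 added. Its call also went without either Landsberg erecta array or either 35S::LFY array. AR781 was 0.63 without the lot 1 mock array and 0.68 without the lot 1 Landsberg erecta array, and was called in neither case.

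The lots stood far apart for the 2 calmodulin-like genes in the dexamethasone and mock groups. In lot 1, CML38 was 3.82 times its lot 2 reading with dexamethasone and 3.61 times with mock, and CML37 was 3.68 and 3.3 times. The lot 2 readings of CML37 were 9.4 and 7.3, under the added constant of 10. The size of its gap on the log2 scale therefore depends on that constant. At readings under 10 in both lots, the lot 1 to lot 2 ratio of CML37 was 3.95 for 35S::LFY seedlings, while Landsberg erecta gave 0.357. On the log2 scale of intensity plus 10, CML38 was 1.77 higher in lot 1 with dexamethasone and 1.67 higher with mock, while with dexamethasone plus cycloheximide it was 0.12 and with cycloheximide -0.18. In Landsberg erecta the order was the other way, at -0.71. STZ differed between the lots by 0.35 with dexamethasone and 0.40 with mock, and AR781 by 0.42 and 0.53. A gap of at least CML38's 1.67, with lot 1 higher in both of these groups, was found for 26 probe sets, or 0.114% of those tested, and none had one as large in the other direction; for CML37's 0.98 the counts were 189, or 0.831%, and 34. Each lot held 1 array per group, so dexamethasone against mock can be read within a lot, where CML38 differed by 0.31 and 0.21 and CML37 by 0.39 and 0.17.

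The other calmodulin and calmodulin-like genes show how much of the family moved with CML37 and CML38 under cycloheximide. Of 49 listed loci, 32 had a named probe set, 30 of them besides the 2 members. Of those 30, limma called 16 higher and 3 lower with cycloheximide than with mock, where the array had 17.2% higher and 25.6% lower. Their median log2 change was 1.20, against -0.03 over all tested probe sets. With dexamethasone plus cycloheximide against dexamethasone, 16 were called higher and 2 lower, where the array had 14.4% higher and 26.2% lower. Their median there was 1.18, against -0.17 over all.

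The change of AT3G01830 was within the error of CML37's, and that of AT5G39670 within the error of CML38's. AT3G01830 rose by 6.77 ± 0.68 (SE; limma adjusted p = 7.56e-06), with 3326.4 and 2800.9 under cycloheximide against 45.8 and 4.2 with mock. With dexamethasone it read 42.7 and 1.0, so lot 1 was far higher in both groups, as for CML37. AT5G39670 rose by 5.16 ± 0.49 (limma adjusted p = 4.93e-06), with 2080.6 and 1615.2 against 84.9 and 18.1. It read 142.6 and 51.5 with dexamethasone, so a wide lot gap in these groups was not particular to CML37 and CML38. CML42, a calcium sensor gene known from leaf hairs and insect feeding, rose by 2.97 ± 0.12 (limma adjusted p = 9.27e-09). AT3G47480 rose by 3.08 ± 0.38, AT3G10300 by 2.91 ± 0.12, AT3G25600 by 2.91 ± 0.16 and AT4G26470 by 2.88 ± 0.21, with limma adjusted p-values of 4.45e-05, 1.01e-08, 5.98e-08 and 6.59e-07. CML23 rose by 2.15 ± 0.32 and CML41, whose protein lies at the channels between plant cells, by 2.00 ± 0.17 (limma adjusted p = 0.000156 and 1.84e-06). AT2G41410 rose by 1.73 ± 0.15 (limma adjusted p = 2.92e-06).

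AT1G76640, the annotated neighbour of CML38, also rose, but from the floor of the scale. It read 60.9 and 27.8 with cycloheximide against 1.6 and 1.9 with mock, a log2 change of 2.14 ± 0.29 (limma adjusted p = 8.08e-05) that was 3.94 with 1 added and 0.84 with 50. With dexamethasone it read 1.6 and 3.3, at the bottom of the scale, where a lot gap like that of CML38 could not be read. The family did not move as one, because AT1G62820 fell by 1.87 on the log2 scale (SE 0.24, limma adjusted p = 5.45e-05) and AT1G12310 fell by 1.40 (SE 0.18, limma adjusted p = 5.25e-05). The fall of CML43, -0.99 ± 0.37, had a limma adjusted p of 0.0492 and was not stable: it was lost with 50 added (limma adjusted p = 0.0577) and without any 1 of 7 arrays, with limma adjusted p-values up to 0.234, without the lot 1 cycloheximide array.

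With dexamethasone against mock limma called none of the 30, and their median was 0.07, the same as over all probe sets. With the lots as a replicate block, with probe sets of a mean intensity of at least 50, or without the lot 1 mock array, 1 of them was called lower. At an unadjusted p under 0.05 there were 4 of the 30, all lower, beside 1732 of all 22746 tested probe sets in either direction. Among the 4 was AT2G41090 at -1.15 ± 0.22 (limma adjusted p = 0.0548), with 118.9 and 160.4 under dexamethasone against 241.8 and 419.9 with mock. By limma none of the 30 was called for dexamethasone plus cycloheximide against cycloheximide (1 at an unadjusted p under 0.05), for 35S::LFY against Landsberg erecta (2) or for the difference between the dexamethasone responses (2). Over all tested probe sets those unadjusted counts were 1401, 1361 and 1168, in the same order. In mock LEAFY-GR against Landsberg erecta 3 of the 30 were called higher and 0 lower, where the array had 4.0% higher and 3.82% lower. CML41 was 1.54 ± 0.17 higher (limma adjusted p = 0.000187), with 126.0 and 131.8 against 34.8 and 41.2. AT2G41410 was 1.30 ± 0.15 higher (limma adjusted p = 0.000318) and AT1G18210 0.81 ± 0.16 higher (limma adjusted p = 0.00887). AT1G18210 lost its call without the lot 1 mock array and without either Landsberg erecta array, at limma adjusted p-values of 0.077, 0.0531 and 0.0976. The median of the 30 was -0.01, and 27 of them were not called.

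**Figure D3:**
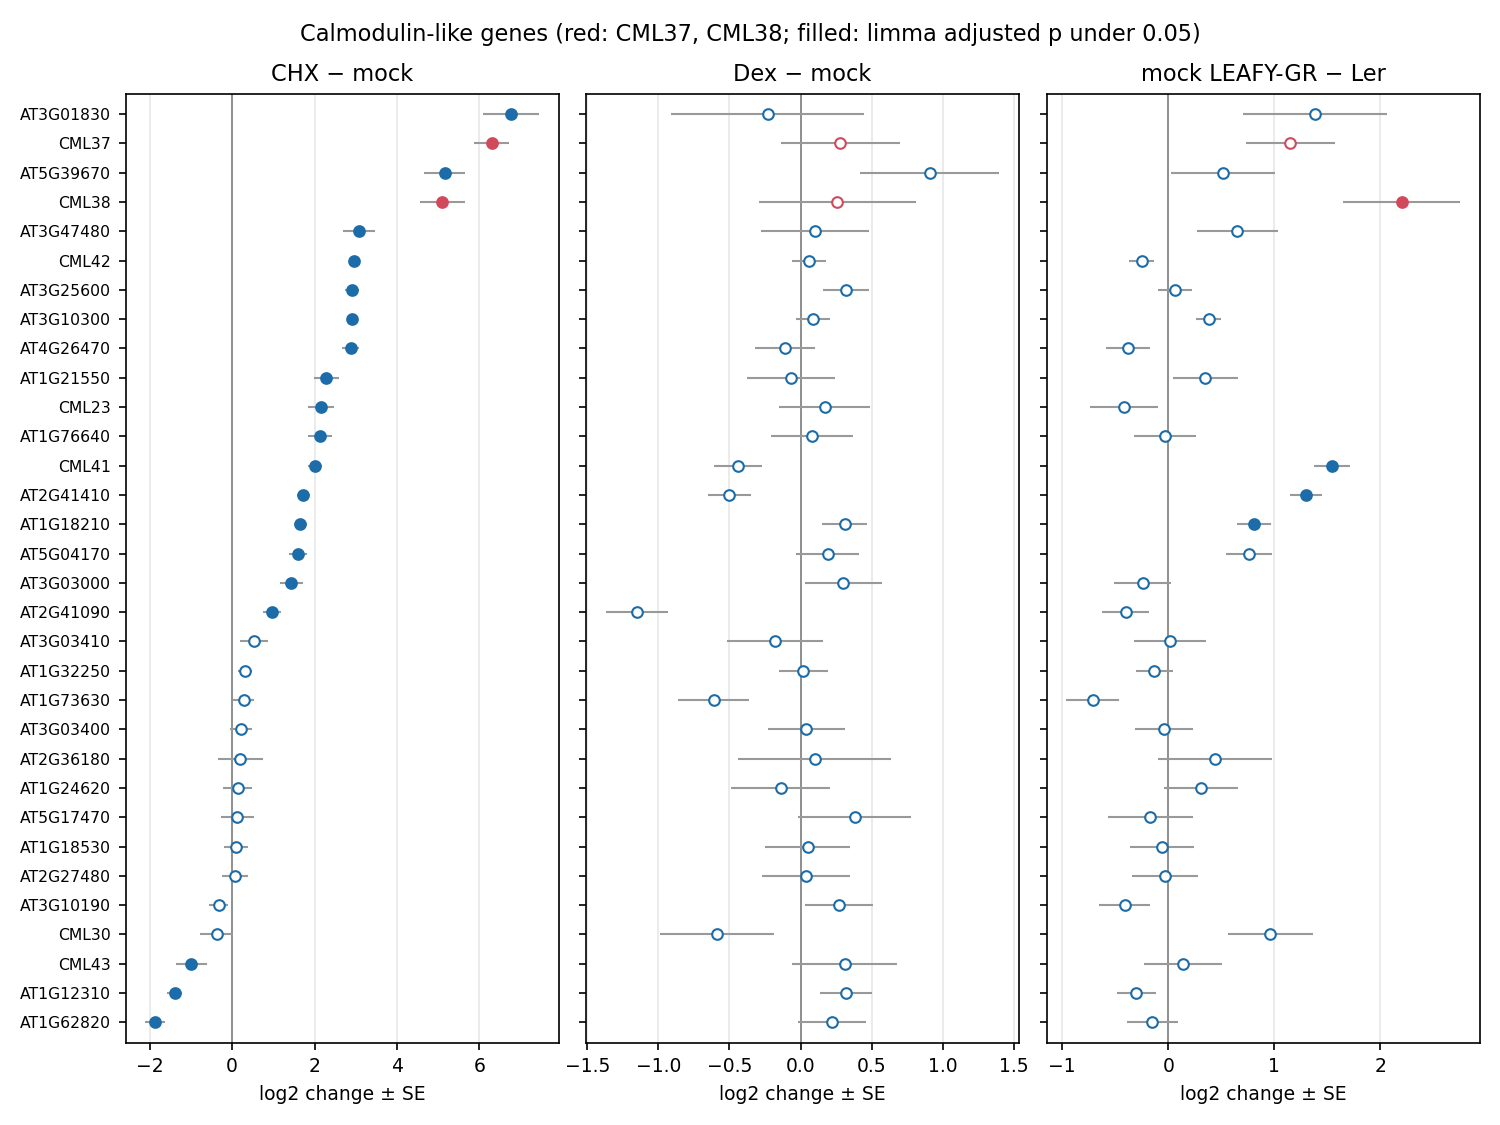
Log2 change with standard error of the 32 measured calmodulin and calmodulin-like genes in 3 comparisons, each panel with its own axis; CML37 and CML38 are red, and filled symbols have a limma adjusted p under 0.05. In the cycloheximide panel 16 of the 30 genes besides the members are called higher, and in the dexamethasone panel none is called.

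Of 17 listed C2H2 zinc-finger loci, 5 besides STZ had a named probe set, and with cycloheximide against mock limma called 2 of the 5 higher and 1 lower, with a median of 0.84, where the array had 17.2% higher and 25.6% lower. AT3G53600 rose by 7.52 ± 0.25 (SE; limma adjusted p = 2.9e-09), with 2429.1 and 1616.5 under cycloheximide against 1.0 and 0.7 with mock. Its mock readings are at the bottom of the scale, so the size is set by the added constant, at 10.07 with 1 added and 5.32 with 50. AT2G28710 rose by 2.17 ± 0.21 (limma adjusted p = 5.63e-06), and AT2G28200 fell by 1.33 (SE 0.28, limma adjusted p = 0.00227). The same counts, 2 higher and 1 lower, came from dexamethasone plus cycloheximide against dexamethasone, where the array had 14.4% higher and 26.2% lower. Dexamethasone against mock gave no limma call and 0 at an unadjusted p under 0.05, and mock LEAFY-GR against Landsberg erecta gave no limma call and 1 at an unadjusted p under 0.05. Over all 22746 tested probe sets those unadjusted counts were 1732 and 4637. AT3G53600 in particular read 0.6 and 0.5 with dexamethasone and 1.3 and 0.4 in Landsberg erecta, both at the bottom of the scale.

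Other rapid stress regulators came closer to the members. Their list, like the others, was drawn up with earlier results of these data known, so its counts are a description. Of 57 listed loci only 6 had a named probe set, namely the U-box ubiquitin ligase genes PUB22, PUB23 and PUB24, which dampen immune responses, and the transcription factor genes WRKY6, WRKY22 and WRKY53, known from defence and leaf ageing. All 6 rose with cycloheximide against mock by limma, with a median of 3.60, where 17.2% of the array was called higher. All 6 also rose with dexamethasone plus cycloheximide against dexamethasone, with a median of 3.82, where 14.4% was called higher. The changes with cycloheximide were 5.26 ± 0.20 for PUB23, 4.32 ± 0.14 for PUB24, 3.61 ± 0.23 for PUB22, 3.58 ± 0.42 for WRKY53, 2.96 ± 0.31 for WRKY6 and 2.47 ± 0.15 for WRKY22. The largest of their limma adjusted p-values was 2.71e-05, for WRKY53.

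Among the listed genes with a named probe set, besides the members, PUB23 was the only one called higher with dexamethasone. It read 323.0 and 229.8 with dexamethasone against 102.8 and 112.8 with mock, a change of 1.26 ± 0.20 (limma adjusted p = 0.0174). The call was lost with equal medians (1.13, limma adjusted p = 0.0878), without the intensity trend in the fit (limma adjusted p = 0.0757), and without the lot 1 dexamethasone array or either mock array, with limma adjusted p-values of 0.125, 0.118 and 0.103. PUB22, at 216.3 and 122.5 with dexamethasone against 248.6 and 173.3 with mock, and PUB24, at 72.2 and 72.1 against 55.9 and 57.1, were not called.

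In mock LEAFY-GR against Landsberg erecta, 3 of the 6 rose by limma and 0 fell, where the array had 4.0% higher and 3.82% lower, and their median was 1.08, against -0.09 over all probe sets. WRKY6 read 365.0 and 182.8 in mock LEAFY-GR against 66.8 and 48.0 in Landsberg erecta, a change of 2.01 ± 0.31 (limma adjusted p = 0.00196). WRKY22 rose by 1.94 ± 0.15 (limma adjusted p = 2.12e-05) and PUB22 by 1.58 ± 0.23 (limma adjusted p = 0.00148). In 35S::LFY against Landsberg erecta 1361 of all 22746 tested probe sets had an unadjusted p under 0.05. None of the 6 was called there by limma, and 2 had an unadjusted p under 0.05. These were PUB23 at 0.86 ± 0.20 and WRKY22 at 0.44 ± 0.15 (SE), beside 0.89 ± 0.17 for STZ. Likewise none of the 6 was called for dexamethasone plus cycloheximide against cycloheximide (0 at an unadjusted p under 0.05) or for the difference between the responses (1). Over all tested probe sets those unadjusted counts were 1401 and 1168.

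Since CML38 is known from low oxygen, a list of 16 loci of that response was read as well, of which 4 had a named probe set. With cycloheximide against mock limma called 1 of the 4 higher and 1 lower, where the array had 17.2% higher and 25.6% lower. AT4G24110 rose with cycloheximide by 3.81 ± 0.38 (SE; limma adjusted p = 7.01e-06), with 532.4 and 572.0 against 38.0 and 23.6 with mock, while AT3G10020 fell by 2.15 (SE 0.19, limma adjusted p = 2.67e-06). AT4G24110 and AT3G10020 both rose in mock LEAFY-GR against Landsberg erecta, where the array had 4.0% called higher and 3.82% lower. The changes were 1.84 ± 0.38 (limma adjusted p = 0.0116) and 0.96 ± 0.19 (limma adjusted p = 0.0093). Both of those calls were lost without the lot 1 Landsberg erecta array, at limma adjusted p-values of 0.0725 and 0.0779, and without the lot 2 one, at 0.0694 and 0.0621. AT4G24110's call was also lost without the lot 1 mock array, at an adjusted p of 0.0931, and AT3G10020's without the lot 2 mock array, at 0.0836. None of the 4 was called by limma for dexamethasone against mock, and 0 had an unadjusted p under 0.05, beside 1732 of all 22746 tested probe sets.

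Of 5 measured markers of leaf and root, 3 were lower with cycloheximide than with mock, where 25.6% of the array was called lower. LHCB4.1 fell by 0.87 on the log2 scale (SE 0.23, limma adjusted p = 0.00874), the root glucosidase gene PYK10 fell by 1.55 (SE 0.27, limma adjusted p = 0.000539) and the root-hair expansin gene EXPA18 fell by 0.99 (SE 0.30, limma adjusted p = 0.019). RCA, for Rubisco activase, at -0.27 ± 0.26, and EXPA7, at -0.10 ± 0.31, were not called. The calls of LHCB4.1 and EXPA18 were lost without the lot 2 mock array (limma adjusted p = 0.079 and 0.177), and that of EXPA18 also without the lot 1 cycloheximide array (0.134). With dexamethasone against mock none of the 5 was called by limma, and 0 had an unadjusted p under 0.05, beside 1732 of all 22746 tested probe sets. In mock LEAFY-GR against Landsberg erecta none was called. There 2 of 3 root markers had an unadjusted p under 0.05, beside 4637 of all 22746 tested probe sets. EXPA18 read 51.8 and 85.9 in mock LEAFY-GR against 103.1 and 128.6 in Landsberg erecta. The part of tissue make-up in the members' values was not tested. The listed jasmonate repressor genes (JAZ), other calcium signalling genes, and seed and pollen markers had 0 named probe sets and were not analysed here.

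**Figure D4:**
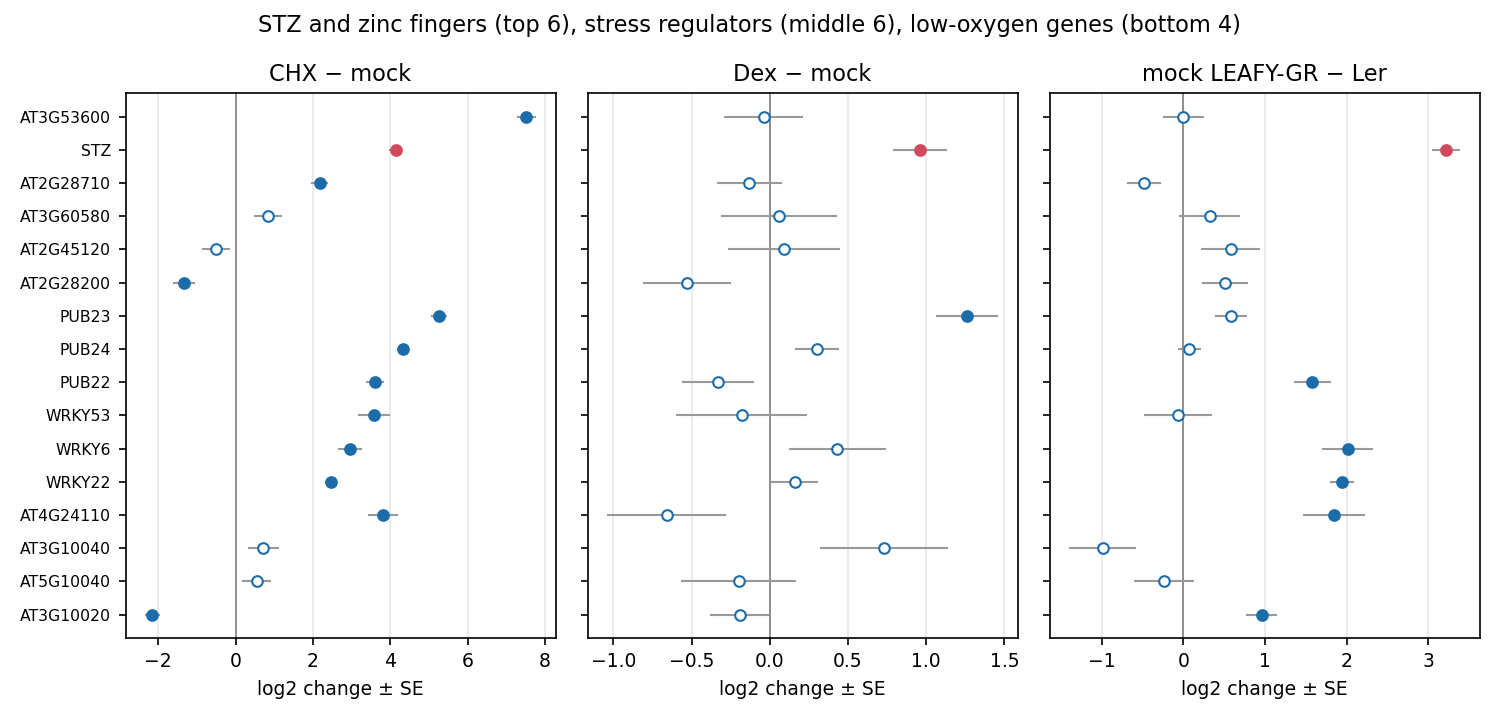
Log2 change with standard error of STZ with 5 zinc-finger genes, 6 stress regulators and 4 low-oxygen genes in 3 comparisons, each panel with its own axis; STZ is red, and filled symbols have a limma adjusted p under 0.05. All 6 stress regulators are called higher with cycloheximide, and PUB23 alone of them with dexamethasone.

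The genes most like each member over the 12 arrays were sought among 842 named probe sets whose group means spanned at least 1 on the log2 scale, by Pearson's r of log2 intensity plus 10. The arrays fall into a cycloheximide cluster and the rest, so these r describe mainly that split. For STZ the 5 highest were WRKY22 (0.993), WRKY6 (0.989), ATMDAR2 (0.987), SRC2 (0.986) and EXO (0.985). For AR781 they were BZIP53 (0.993), NRPA2 (0.988), PUB23 (0.985), TET8 (0.981) and VPS60.1 (0.980). For CML37 they were VPS60.1 (0.997), UGT71C5 (0.996), BZIP60 (0.994), VPS2.1 (0.992) and B120 (0.992), and for CML38 they were TET8 (0.995), PUB22 (0.991), SRC2 (0.989), UGT71C5 (0.987) and BIK1 (0.986). The receptor-like kinase gene B120 and BZIP60, a transcription factor gene of the unfolded protein response, were 5.75 ± 0.23 and 4.43 ± 0.21 higher with cycloheximide than with mock (SE), beside CML37's 6.30 ± 0.42.

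Without the 4 cycloheximide arrays, 247 named probe sets spanned that range over the remaining 8, and the likest genes were mostly others. STZ was followed by UBC16 (0.989), MGL (0.989), ALDH6B2 (0.979), WRKY22 (0.979) and AER (0.977). Among these only WRKY22 was clearly higher with cycloheximide, at 2.47 ± 0.15, whereas MGL, a methionine-degrading enzyme gene, was at -1.95 ± 0.19, ALDH6B2 at -2.70 ± 0.17, AER at -1.61 ± 0.27 and UBC16 at 0.05 ± 0.14. AR781 was followed by FMO (0.968), LCR72 (0.924), OCT4 (0.923), MGL (0.906) and GAT1_2.1 (0.901), whose changes with dexamethasone were 0.34 to 0.77 beside AR781's 1.63.

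CML37 and CML38 shared 4 of their 5 likest genes over these 8 arrays, namely SBT3.5, OCT5, SAT32 and UGT73B5. For CML37 the values were UGT73B4 (0.948), OCT5 (0.941), SAT32 (0.939), UGT73B5 (0.933) and SBT3.5 (0.927), and for CML38 SBT3.5 (0.983), ATMDAR2 (0.974), OCT5 (0.969), SAT32 (0.967) and UGT73B5 (0.964). Over these arrays CML37 and CML38 differed between the groups as well as between the lots. Genes picked for likeness can be expected to share either difference. SBT3.5, a subtilisin-like protease gene, was 2.28 higher in lot 1 than in lot 2 with dexamethasone and 1.75 higher with mock. UGT73B5, a glycosyltransferase gene, was 2.24 and 1.53 higher, OCT5 1.00 and 1.17, and SAT32 0.79 and 0.85. UGT73B4 was 1.91 and 2.27 higher, but ATMDAR2 only 0.39 and 0.47. Mock LEAFY-GR was above Landsberg erecta by 2.43 ± 0.70 for SBT3.5 and 2.83 ± 0.59 for UGT73B5 (SE). For OCT5 it was 1.24 ± 0.35, for SAT32 1.02 ± 0.28, for UGT73B4 1.72 ± 0.65 and for ATMDAR2 0.99 ± 0.17.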

How the data were processed

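RNA of 12 seedling samples was read on 1-colour arrays. The table the authors deposited holds linear intensities of 22810 probe sets, 1 per array, already scaled judging from the values; the software and its settings are not given in the sources used here, and no further normalisation was applied. Leaving out 64 control probe sets left 22746. Of the 14016 probe sets in the array's annotation table, 13513 had 1 gene, 503 had several, and 13436 matched a locus in a RefSeq gene table, which was used for names and neighbours only.

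Intensities were converted to log2(intensity + 10), a scale that understates the change of dim probe sets. With limma 3.58.1 in R 4.3.3, 1 mean per group was fitted to all 12 arrays (6 residual and 5.3 prior degrees of freedom, intensity trend), and p-values were adjusted by Benjamini-Hochberg over all tested probe sets, with calls at an adjusted p under 0.05. The SE of each log2 change comes from this fit. The fit was tested on simulated data with independent noise and no lot effect. Known changes were added there only to probe sets that were not dim. That test cannot show how the fit does with lot gaps or with readings as low as those of CML37. Descriptions were made with pandas 2.3.3 and numpy 2.4.6 under Python 3.11.15, and plots with matplotlib 3.10.9. The number of arrays limits the precision.

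The 4 members, the gene lists and the rules were chosen with earlier results of these data known. From each list the rule named up to 6 genes called with the smallest p, with relatives next to a member. For each member it named the 5 likest named probe sets. In the calmodulin-like list AT5G39670, AT3G47480, CML23 and the genes that fell with cycloheximide were named outside that rule. AT2G41090 and the zinc-finger, PUB22 and PUB24 levels under dexamethasone were picked after their values were seen. Alternatives were an added constant of 1 or 50, equal medians, quantile normalisation, a mean intensity of at least 50, the lot as a replicate block, no intensity trend, and leaving out each array. The labels name the lot as a batch with 1 array per group; over 15 pairs of groups the same-lot deviations correlated at 0.02 to 0.55 (median 0.12), over 0.1 in 12. The level of LFY, which would check the labels, has no named probe set here and was not analysed.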

Additional observations from a re-analysis of the deposited data

How the results depend on the processing

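Across 28 changes of the 4 genes and 19 settings, 506 of 532 values kept their side of the threshold, 23 lost a call, 3 gained one and none turned a called change round; uncalled changes could change sign. With 1 added, STZ in 35S::LFY against Landsberg erecta was 1.03 and called, and CML37 in mock LEAFY-GR against Landsberg erecta was 2.93 and called. With 50 added, CML38 in mock LEAFY-GR against Landsberg erecta was 1.26 and not called. With equal medians, STZ for dexamethasone against mock was 0.82 and not called. With the lot as a replicate block, CML37 in mock LEAFY-GR against Landsberg erecta kept its 1.15 and was called, and the block changed no other call of the 4 genes. Without the intensity trend, STZ for dexamethasone against mock (0.96), and AR781 (0.89) and CML38 (2.20) in mock LEAFY-GR against Landsberg erecta, were not called. Leaving out each array in turn gave 0.76 to 1.16 for STZ and 1.37 to 1.90 for AR781 with dexamethasone against mock, and 0.63 to 1.16 for AR781 and 1.36 to 3.03 for CML38 in mock LEAFY-GR against Landsberg erecta. Calls lost without an array of a group outside the comparison came with fewer arrays in the fit. The uncalled dexamethasone changes of CML37 and CML38 took either sign, at -0.32 to 0.88 and -0.63 to 1.15.

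Counts over the array depended more on the setting. For dexamethasone against mock, 49 higher became 22 to 62, or 15 to 58 with an array left out, and 59 lower became 39 to 86, or 17 to 79. For dexamethasone plus cycloheximide against cycloheximide, 31 higher became 21 to 40, or 14 to 43, and 13 lower became 4 to 20, or 2 to 11. For 35S::LFY against Landsberg erecta, 39 higher became 22 to 50, or 1 to 35, and 28 lower became 9 to 37, or 0 to 26. For mock LEAFY-GR against Landsberg erecta, 910 higher became 683 to 1095, or 477 to 949, and 869 lower became 388 to 1182, or 254 to 1029. The difference between the dexamethasone responses gave 6 higher, or 1 to 7, and 0 to 2 with an array left out, and 1 lower, or 0 to 1. Calmodulin-like genes called higher in mock LEAFY-GR numbered 3, and 5 with equal medians; of the other stress lists 5 were called there, and 3 without the lot 1 Landsberg erecta array. Low readings, with no background or detection values, limit CML37 most.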
